A study of Homo sapiens with 16 samples.

Results

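The mRNAs described here encode the subunits of the nuclear RNA polymerases I, II and III and of Mediator, the coactivator that bridges DNA-bound transcription factors and RNA polymerase II. They were chosen by name: protein-coding symbols of the GENCODE annotation that begin with POLR1, POLR2 or POLR3, or with MED followed by a number. Of 60107 genes in the count files 63 met this rule, 33 of them polymerase subunits and 30 Mediator subunits. The rule takes in POLR2M, a protein that binds RNA polymerase II, and leaves out the Mediator kinases and their cyclin, which carry other names.

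Cytoplasmic RNA from 16 cultures of human U2OS osteosarcoma cells was measured as 3′ end tags (QuantSeq REV). Each read marks the polyadenylated end of a transcript, and several reads can stem from the same molecule. Control (n = 5) and Induced (n = 5) cultures were U2OS-TR/ΔN-RNMT cells, which carry the tetracycline repressor and a transgene for ΔN-RNMT, a truncated and catalytically inactive cap methyltransferase kept in the cytoplasm. The line is 1 clone, picked as the highest expressor among several, and its transgene is driven by a CMV promoter under tetracycline operator control. No Dox (n = 3) and With Dox (n = 3) cultures were the parental U2OS-TR cells, which share the repressor and lack the transgene. Induced and With Dox cultures received 1 μg/ml doxycycline 48 h after plating and all cultures were harvested 24 h later. The treatment label names doxycycline for every sample, so the groups were taken from the titles and descriptions, which name the cultures control or induced and No Dox or with dox. The transgene line asks how blocking cytoplasmic cap methylation moves these mRNAs and the parental line asks what doxycycline does alone.

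RNA polymerase I transcribes the large ribosomal RNA precursor, RNA polymerase II transcribes mRNAs, and RNA polymerase III transcribes tRNAs, 5S ribosomal RNA and other small RNAs. Each enzyme has a large catalytic pair, smaller subunits that all 3 enzymes share, and subunits of its own. Mediator is built from head, middle and tail modules held on the MED14 scaffold, and a detachable kinase module. The head and middle contact RNA polymerase II, and much of the tail contacts activators.

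Gene counts per library were 18991617 to 23251834 in Control, 12527183 to 20781875 in Induced, 1578749 to 3214808 in No Dox and 1473286 to 2979789 in With Dox, so members are measured with less precision in the parental cells. RNMT is the gene whose truncated form the transgene encodes. It had 55.6 to 112 CPM, the counts per 1000000 gene counts, in Control. In Induced it had 266 to 458 CPM, a log2 fold change of 2.22. Tags of the transgene and of endogenous RNMT were not told apart. In parental cells RNMT had 73.4 to 124 CPM without and 56.2 to 90.5 CPM with doxycycline. Of 10 mesenchymal markers 8 were above 1 CPM in every library of the transgene line, including VIM, SPARC and COL1A1, and COL1A2 and TWIST1 had at most 1 count in any library. Summed CPM in the transgene line was 12.4 to 25.1 over 6 epithelial markers, 12.6 to 18.0 over 6 neural markers and 0.222 to 0.876 over 6 blood markers. The nuclear RNA MALAT1 differed by 0.03 (log2) between Induced and Control, whereas NEAT1 fell by 0.44 (adjusted p = 0.041) and SNHG14 rose by 0.60 on the log2 scale (adjusted p = 0.031). VIM (1.44, adjusted p = 0.018) and RUNX2 (1.16, adjusted p = 0.018) of the mesenchymal list also rose in Induced. In parental cells MALAT1 had 311 to 1310.4 CPM without and 121 to 129 CPM with doxycycline, and its part in the members' values was not tested. Control replicate 5 and Induced replicate 2 lay between the groups for many members, and their values are named below where a result rests on them.

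Because the study concerns caps, annotated 5′ ends are shown first, of the 4 called members that rose most and the 5 that fell most among those with a RefSeq window, and of MED18, whose response differed between the lines. MED30, POLR2K and POLR2I moved more than several of these and had no window. Each window runs from 30 bases before the RefSeq start to 20 bases from it (GRCh38.p14), and the capitals mark the transcribed bases. Members that were higher in Induced cultures began as follows:
POLR2B, chr4:56978866-56978915, plus strand: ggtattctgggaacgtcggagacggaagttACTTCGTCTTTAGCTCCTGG
POLR2M, chr15:57706684-57706733, plus strand: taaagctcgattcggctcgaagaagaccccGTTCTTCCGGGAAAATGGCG
MED1, chr17:39451244-39451293, minus strand: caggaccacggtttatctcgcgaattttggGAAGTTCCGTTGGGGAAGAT
MED20, chr6:41920924-41920973, minus strand: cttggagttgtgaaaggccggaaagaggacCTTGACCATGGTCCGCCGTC
Members that were lower in Induced cultures began as follows:
MED24, chr17:40054389-40054438, minus strand: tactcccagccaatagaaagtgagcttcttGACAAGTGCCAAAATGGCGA
POLR2L, chr11:842510-842559, minus strand: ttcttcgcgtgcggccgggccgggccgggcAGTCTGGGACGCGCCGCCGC
POLR3C, chr1:145824170-145824219, plus strand: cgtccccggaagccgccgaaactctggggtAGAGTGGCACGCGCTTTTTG
MED25, chr19:49818259-49818308, plus strand: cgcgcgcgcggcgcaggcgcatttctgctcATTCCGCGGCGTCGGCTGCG
POLR2E, chr19:1095356-1095405, minus strand: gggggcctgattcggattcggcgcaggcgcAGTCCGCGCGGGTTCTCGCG
MED18, chr1:28329010-28329059, plus strand: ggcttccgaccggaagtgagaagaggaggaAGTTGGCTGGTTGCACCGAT

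A 5′ terminal oligopyrimidine start, searched as C followed by at least 4 pyrimidines from the annotated first base, is the mark of the TOP mRNAs. It was found in 0 of the 46 members with a RefSeq promoter window, against 541 of 9917 tested genes with a window (5.46%). MED20 came nearest, with a pyrimidine run of 3 bases from its C. POLR2E and POLR2L, which were among the members that fell, had a run of 0. Annotated starts differ from the ends used in a cell, so this describes the reference sequence only.

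The motif AANATGGCG, the core recognised by YY1, was searched on both strands from 250 bases before to 50 bases after the start. It was present in 8 of 46 member windows (17.4%) and 7.18% of windows of all tested genes. In MED24 and POLR2M it lies in the printed transcribed bases as AAAATGGCG. Of the 8 members 5 were lower in Induced cultures (MED16, MED18, MED24, MED25 and MED27), 2 were higher (MED1 and POLR2M) and POLR1C did not pass the test. The shares among all genes were 7.99% of those higher, 7.40% of those lower and 6.83% of those without a call. Of the 7 motifs searched, CCGGAAG, an ETS motif, was in 16 of 46 member windows (34.8%) against 20.1% of all tested genes. GGGCGG, the SP1 motif, was in 29 (63.0%) against 71.8%. The NRF1 motif was in 11 (23.9%) against 12.2% and the CCAAT box in 13 (28.3%) against 36.6%. The TATA box was in 3 (6.5%) against 5.1% and the ZNF143 motif in 2 (4.3%) against 4.3%. Only the YY1 motif is split by call here.

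Expression of ΔN-RNMT was accompanied by changes in both complexes, and in neither did the subunits move as 1 block. Of 61 members tested, 23 passed an adjusted p of 0.05 (37.7%), 10 higher and 13 lower in Induced. Across all 13038 genes tested 39.8% passed, 20.0% higher and 19.8% lower, so the members changed about as often as other genes. Polymerase subunits gave 4 higher and 7 lower of 31 tested (35.5%), and Mediator subunits gave 6 higher and 6 lower of 30 (40.0%). The median log2 fold change was -0.07 for polymerase subunits and 0.18 for Mediator subunits, beside 0.04 for all genes. Scaled to total counts alone, all genes shifted to a median of 0.28, polymerase subunits to 0.17 and Mediator subunits to 0.41, and the called members split 18 higher to 7 lower, beside 41.6% of all genes, 30.8% higher and 10.7% lower. With offsets for the GC content of each gene, 17 of the 61 members passed, 5 higher and 12 lower, beside 26.6% of all genes, and 15 of the 23 were among them. POLR2J2 had no counts in any library and POLR2J3 at most 9, and neither was tested. Both are near-identical copies of POLR2J. Reads whose alignment was not unique were tallied in a separate row, and how many came from these copies was not tested. In these bulk libraries fewer cells with an mRNA and less of it per cell cannot be told apart.

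**Figure D1:**
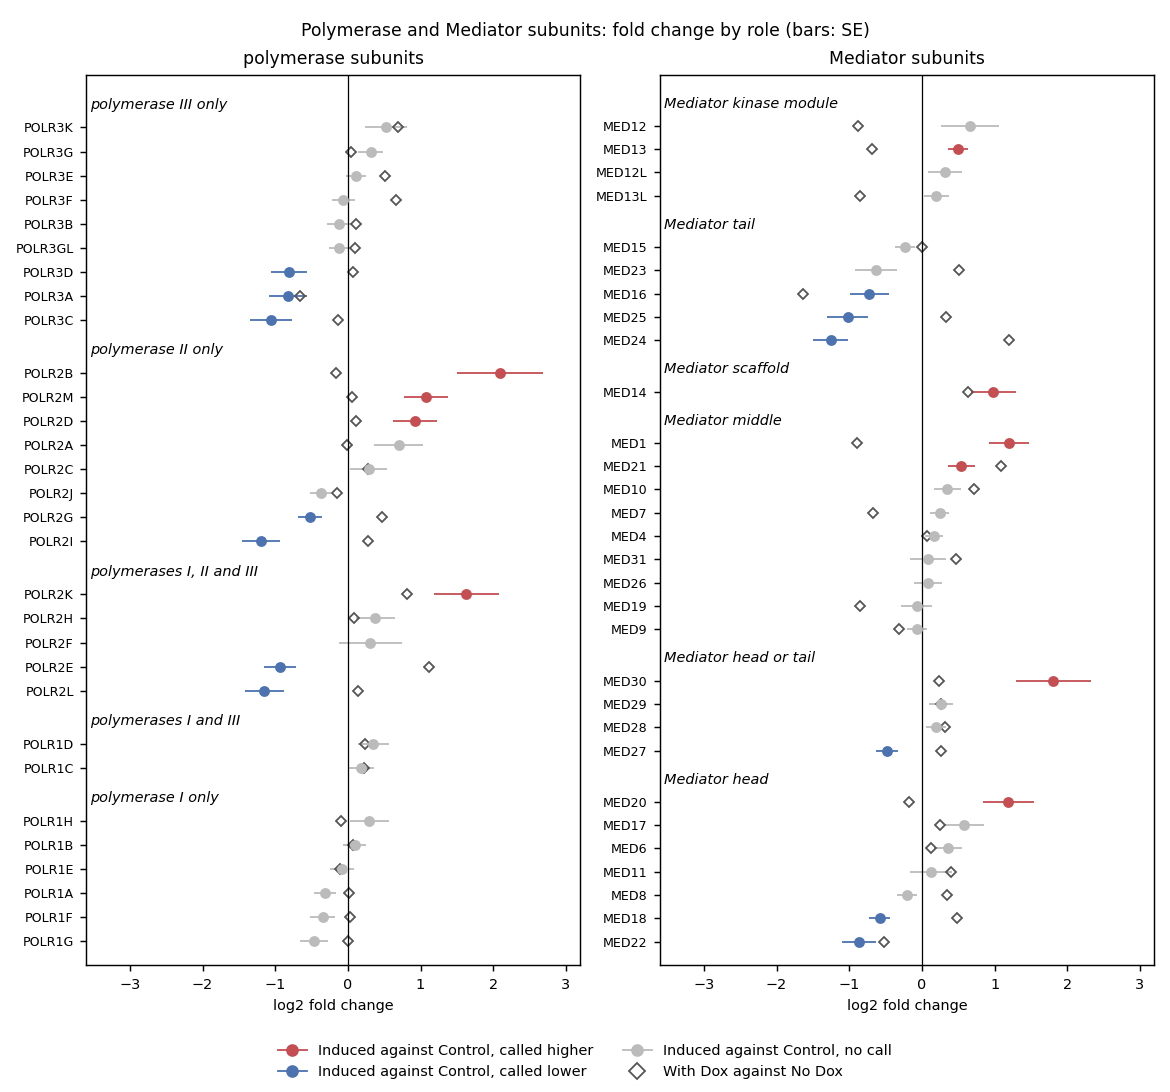
Log2 fold change of the tested subunits named here (x axis) by role (y axis), with polymerase subunits on the left and Mediator on the right. Filled circles with SE bars are Induced against Control, red where called higher, blue where called lower and grey without a call, and open diamonds are With Dox against No Dox; the 5 tail subunits lie below 0 in the transgene line, where MED15 was at 0.16 with GC offsets and 0.01 when scaled to total counts, and none of the parental changes was called.

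Within RNA polymerase II the largest rise was that of its second-largest subunit. POLR2B, which forms the active-site cleft with POLR2A, had 26.3, 17.8, 13.4, 30.3 and 115 CPM in Control replicates 1 to 5. In Induced replicates 1 to 5 it had 237, 50.3, 237, 191 and 152 CPM. All but Induced replicate 2 lay above every Control library, and Control replicate 5 lay above the other Control libraries. The mean went from 40.5 ± 42.1 to 173 ± 77.4 CPM (SD, n = 5), a log2 fold change of 2.10 (SE 0.60, adjusted p = 0.022). Without Control replicate 5 it was 2.97, and POLR2B passed in 5 of the 10 fits that each left out 1 library. POLR2A itself, the catalytic subunit that carries the C-terminal repeat domain, did not pass the test (log2 fold change 0.70, adjusted p = 0.114), with 26.9 to 134 CPM in Control and 96.0 to 132 CPM in Induced. The highest Control value was that of replicate 5, without which POLR2A passed (1.10, adjusted p = 0.0024). IGFBP7, on the opposite strand, has exons within the last 500 bases of POLR2B, and whether the counting used strand is not given in the sources used here.

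POLR2M and POLR2D also rose. POLR2M, which binds the enzyme and limits its initiation, had 6.40, 5.55, 5.50, 8.18 and 13.6 CPM in Control and 22.1, 8.89, 21.6, 15.3 and 15.0 CPM in Induced replicates 1 to 5. Its log2 fold change was 1.07 (SE 0.31, adjusted p = 0.023), and 4 Induced libraries lay above all Control libraries. POLR2D, which forms the stalk with POLR2G, had 37.4, 35.3, 23.2, 44.2 and 79.0 CPM in Control and 103, 53.4, 97.7, 82.1 and 80.4 CPM in Induced. Its log2 fold change was 0.93 (SE 0.30, adjusted p = 0.032), and again Induced replicate 2 fell below Control replicate 5. With GC offsets neither passed, POLR2M at 0.59 (adjusted p = 0.068) and POLR2D at 0.75 (adjusted p = 0.052).

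Other subunits of the same enzyme fell. POLR2I, a small zinc-binding subunit that helps in proofreading, had 255, 289.7, 392, 232 and 154 CPM in Control and 92.9, 182, 92.8, 100.4 and 109.9 CPM in Induced. Its mean went from 264 ± 86.9 to 116 ± 37.6 CPM (SD, n = 5), a log2 fold change of -1.19 (SE 0.27, adjusted p = 0.018), and Induced replicate 2 was above Control replicate 5. POLR2G, the partner of POLR2D in the stalk, was 106 to 146 CPM in Control and 75.3 to 119.8 CPM in Induced, a log2 fold change of -0.52 (adjusted p = 0.027), and did not pass when scaled to total counts (-0.28, adjusted p = 0.109). The 2 stalk subunits thus had opposite signs. The log2 fold changes of POLR2C and POLR2J were 0.28 and -0.37, and neither passed the test, while without Control replicate 5 both did (0.54 and -0.44). POLR2I has exons of TBCB, OVOL3 and another gene, POLR2C of DOK4 and POLR2J of LRWD1, on the opposite strand near its end.

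Of the subunits common to all 3 enzymes, POLR2E and POLR2L fell and POLR2K rose. POLR2E, which sits at the jaw of the enzyme, had 720.1, 769.8, 1202, 701 and 454 CPM in Control and 359, 443, 381, 401 and 424 CPM in Induced. No Induced library reached the lowest Control library, and the fold change was -0.94 (log2, SE 0.22, adjusted p = 0.018). POLR2L, a small zinc-binding assembly subunit, had 404, 442, 780.0, 371 and 247 CPM in Control and 179, 251, 189, 176 and 214 CPM in Induced. Induced replicate 2 and Control replicate 5 were almost equal there, and the log2 fold change was -1.15 (SE 0.27, adjusted p = 0.018).

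POLR2K, the other small zinc-binding common subunit, had 8.38, 6.49, 6.28, 9.34 and 26.9 CPM in Control. In Induced it had 39.8, 13.5, 45.2, 36.3 and 43.5 CPM, and Control replicate 5 lay above Induced replicate 2. Its log2 fold change was 1.63 (SE 0.44, adjusted p = 0.020). POLR2H (0.38) and POLR2F (0.31) did not pass the test, and POLR2F had 0.5 to 2.52 CPM in Control, too few tags to show a moderate change. POLR2E has exons of ARHGAP45, and POLR2L of CD151, on the opposite strand near its end.

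Among the 10 subunits found in RNA polymerase III alone, 3 fell and none rose, beside 19.8% of all genes lower and 20.0% higher. POLR3A, the catalytic subunit, was 28.4 to 83.1 CPM in Control and 21.8 to 39.2 CPM in Induced, with a log2 fold change of -0.83 (adjusted p = 0.030). POLR3C, of the initiation trimer, had 38.1, 36.7, 74.5, 37.5 and 22.6 CPM in Control and 20.6, 26.4, 20.1, 19.9 and 13.6 CPM in Induced. Its log2 fold change was -1.06 (SE 0.29, adjusted p = 0.020), and Induced replicate 2 was above Control replicate 5. POLR3D, of the termination pair, had 31.5 to 89.8 CPM in Control, 26.2 to 42.8 CPM in Induced and a log2 fold change of -0.81 (adjusted p = 0.028). PIWIL2-DT has exons on the opposite strand near the end of POLR3D. POLR3B, which completes the catalytic pair with POLR3A, had a log2 fold change of -0.12 (adjusted p = 0.568). POLR3E, POLR3F, POLR3G, POLR3GL and POLR3K did not pass the test either, and the last had the highest log2 fold change of them, 0.52. Scaled to total counts, POLR3A (-0.57, adjusted p = 0.061) and POLR3D (-0.55, adjusted p = 0.062) did not pass and POLR3G passed as higher (0.55, adjusted p = 0.039), which leaves 1 higher and 1 lower. Without Control replicate 5 POLR3K also passed as higher (0.89, adjusted p = 0.0013).

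No subunit of RNA polymerase I alone, and neither of the 2 it shares with RNA polymerase III, passed the test. The 6 of RNA polymerase I lay between -0.46 (POLR1G, adjusted p = 0.071) and 0.29 (POLR1H). POLR1F was at -0.35 (adjusted p = 0.122) and passed as lower with GC offsets (-0.85, adjusted p = 0.028). POLR1G passed by DESeq2 (adjusted p = 0.044) and without Control replicate 5 (-0.59, adjusted p = 0.0092). POLR1A, the catalytic subunit, had 22.7 to 33.1 CPM in Control and 20.1 to 26.1 CPM in Induced (log2 fold change -0.32, adjusted p = 0.099). POLR1C and POLR1D, which nucleate assembly of both enzymes, had log2 fold changes of 0.18 and 0.35.

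In the Mediator tail all 5 subunits had a log2 fold change below 0, from -1.26 to -0.23, and 3 passed the test. MED24 had 295, 312, 454, 280.0 and 178 CPM in Control and 131, 159.9, 135, 121 and 89.9 CPM in Induced replicates 1 to 5. Every Induced library was below every Control library, and the mean went from 304 ± 98.9 to 127 ± 25.4 CPM (SD, n = 5), a log2 fold change of -1.26 (SE 0.24, adjusted p = 0.018). MED25, which binds several activators, had 14.3, 15.4, 26.8, 16.4 and 7.81 CPM in Control and 6.41, 10.2, 8.50, 7.24 and 7.30 CPM in Induced. The Control mean rests on 4 libraries that were above all Induced libraries while Control replicate 5 was not, and the log2 fold change was -1.02 (SE 0.28, adjusted p = 0.020). MED16 was 4.99 to 14.7 CPM in Control and 4.25 to 7.10 CPM in Induced (log2 fold change -0.73, SE 0.27, adjusted p = 0.048). MED23 (-0.64, adjusted p = 0.089) and MED15 (-0.23, adjusted p = 0.186) did not pass, and MED15 was at 0.01 when scaled to total counts. With GC offsets MED15 was at 0.16, MED25 (-0.48, adjusted p = 0.085) and MED16 (-0.20, adjusted p = 0.394) did not pass and MED23 did (-1.02, adjusted p = 0.041), as it also did without Control replicate 5 (-0.83). MED16 did not pass when scaled to total counts either (-0.47, adjusted p = 0.132).

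Subunits of the middle module and the scaffold that passed were all higher. MED1, which binds nuclear receptors, had 39.1, 42.8, 53.7, 37.8 and 65.0 CPM in Control and 141, 46.4, 117, 131 and 111 CPM in Induced. All Induced libraries but replicate 2 were above all Control libraries, and the log2 fold change was 1.19 (SE 0.28, adjusted p = 0.018). MED21, which pairs with MED7 in the hinge of the middle module, was 22.5 to 28.2 CPM in Control and 22.2 to 42.3 CPM in Induced (log2 fold change 0.54, adjusted p = 0.036). With GC offsets MED21 was at -0.02 (adjusted p = 0.900). MED14, the scaffold, had 4.72, 3.74, 2.61, 6.44 and 10.1 CPM in Control and 11.5, 8.28, 10.5, 11.3 and 13.4 CPM in Induced, with a log2 fold change of 0.98 (SE 0.31, adjusted p = 0.031), and at 0.67 (adjusted p = 0.076) with GC offsets. The other 7 middle subunits lay between -0.07 (MED9 and MED19) and 0.35 (MED10). Scaled to total counts MED10, MED4 and MED7 passed as higher, at 0.57, 0.41 and 0.47.

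The head and the subunits placed between head and tail were split. MED30 had 7.06, 4.33, 2.11, 8.13 and 19.6 CPM in Control and 33.4, 11.9, 29.5, 25.5 and 44.9 CPM in Induced, the largest rise among Mediator subunits at 1.81 (log2, SE 0.52, adjusted p = 0.022) and 2.40 without Control replicate 5. MED20, of the movable head jaw, had 11, 10.1, 10.5, 13.7 and 32.1 CPM in Control and 40.6, 17.8, 38.4, 35.4 and 44.7 CPM in Induced. Control replicate 5 stood well above the other Control libraries, and the log2 fold change was 1.19 (SE 0.35, adjusted p = 0.025).

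MED18, the partner of MED20 in the jaw, moved the other way. It had 20.5, 18.3, 22.1, 19.6 and 23.0 CPM in Control and 14.1, 16.1, 15.1, 11.3 and 12.6 CPM in Induced, with no overlap of the groups (log2 fold change -0.58, SE 0.14, adjusted p = 0.018), but did not pass when scaled to total counts (-0.35, adjusted p = 0.059). MED22 had 57.2 to 112 CPM in Control and 31.8 to 68.9 CPM in Induced (-0.86, SE 0.23, adjusted p = 0.020). MED27 had 256 to 382 CPM in Control and 219.7 to 279 CPM in Induced (log2 fold change -0.48, adjusted p = 0.030). MED27 did not pass with GC offsets (-0.38, adjusted p = 0.055) or total counts (-0.23, adjusted p = 0.185). MED8, MED11, MED6 and MED17 of the head did not pass, at -0.20 to 0.58, though MED6 (0.59) and MED17 (0.83) did with total counts, as did MED29 (0.50), placed between head and tail, and MED6 (0.50) without Control replicate 5.

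All 4 kinase-module subunits of the list were above 0, and 1 passed. MED13, which tethers the kinase to the core, had 30, 30.1, 34.8, 28.8 and 34.1 CPM in Control and 49.7, 36.3, 40.5, 49.2 and 47.0 CPM in Induced. The groups did not overlap, and the log2 fold change was 0.50 (SE 0.14, adjusted p = 0.022), but with GC offsets it was 0.04 (adjusted p = 0.807). MED12, MED12L and MED13L lay at 0.66, 0.32 and 0.20. MED12 passed without Control replicate 5 (1.11, adjusted p = 0.0081), and MED13L with total counts (0.45, adjusted p = 0.046). Of the kinase partners that the rule leaves out, CDK8 rose (log2 fold change 1.81, SE 0.60, adjusted p = 0.035), from 3.76 ± 4.32 to 13.3 ± 5.58 CPM (SD, n = 5), and the other two did not pass.

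Over all tested members the libraries of Control and Induced did not overlap for 4 of 61, POLR2E, MED13, MED18 and MED24, while 7.30% of all genes had no overlap. Of the 23 called members 18 differed by more than 1.5-fold, 8 higher and 10 lower. The matching share over all genes is not given here. Summed over the polymerase subunits the level was 2275 to 3438 CPM in Control and 1984 to 2101 CPM in Induced, and POLR2E and POLR2L make up much of that sum. Summed over Mediator subunits it was 1398 to 1754 CPM in Control and 1329 to 1409 CPM in Induced.

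**Figure D2:**
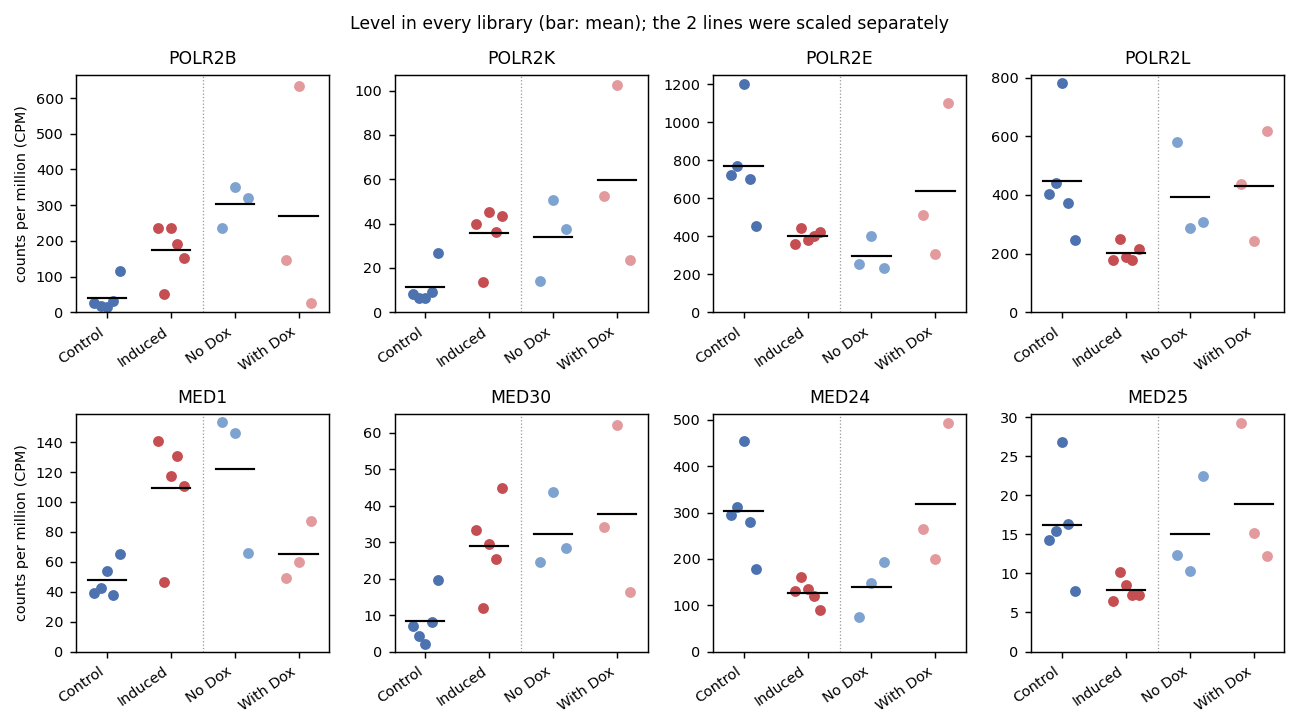
CPM (y axis) of 8 subunits in every library, by group (x axis), each point 1 library and each bar the group mean. POLR2B, POLR2K, MED1 and MED30 are higher and POLR2E, POLR2L, MED24 and MED25 lower in Induced than in Control, while the parental groups overlap except for MED24; the 2 lines were scaled separately and their levels are not to be set against each other.

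Leaving out 1 library changed how many members passed, from 6 without Induced replicate 1 to 31 without Control replicate 5. All genes went the same way, from 1869 of 13100 to 7604 of 12990 passing. The count was 10 without Control replicate 1 and 9 without Control replicate 2, beside 2549 of 13037 and 2169 of 13059 genes. It was 11 without Induced replicate 3, 7 without Induced replicate 4 and 15 without Induced replicate 5. Among all genes the calls were then 2305 of 13066, 1890 of 13014 and 3732 of 13037. POLR2E, POLR2I, POLR2L, MED1, MED18 and MED24 passed in all 10 of these fits. POLR2K, POLR3C and MED25 passed in 8, MED22 in 7, and POLR2B, POLR2G, POLR2M, MED13 and MED30 in 5. MED14 and MED27 passed in 4, POLR3A and POLR3D in 3, and POLR2D, MED16, MED20 and MED21 in 2. The 31 without Control replicate 5 were the 23 and POLR1G, POLR2A, POLR2C, POLR2J, POLR3K, MED6, MED12 and MED23. Leaving out both Control replicate 5 and Induced replicate 2 was a choice made after seeing the data. It gave 40 members, 21 higher and 19 lower, beside 8329 of 12956 genes. With 1 surrogate variable in the model no member passed, and only 1 gene in all did.

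Doxycycline alone gave no called member. Of 58 members tested in parental cells 0 passed, beside 0 of 9124 genes (0.00%) by edgeR, and DESeq2 also gave 0 members. At an unadjusted p under 0.05 there was 1 member, MED24, against 267 genes (2.93%). The median log2 fold change was 0.08 for polymerase subunits and 0.24 for Mediator subunits, beside -0.01 for all genes. Absence of a call here is not evidence of no response, since SEs of the named members ran to 0.86 on the log2 scale.

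MED24 had 75, 148 and 194 CPM in No Dox replicates 1 to 3 and 265, 199 and 492 CPM in With Dox replicates 1 to 3. With Dox was thus the higher group without overlap, the opposite direction to the transgene line (log2 fold change 1.19, SE 0.49). No overlap was seen for 6 of 58 members, all of them Mediator subunits (MED8, MED9, MED12, MED13L, MED18 and MED24), and for 9.52% of all genes. MED12 and MED13L of the kinase module were lower with doxycycline, at -0.88 and -0.86, whereas MED8 and MED18 of the head were higher, at 0.34 and 0.49, and none passed the test.

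Replicates of the parental cells were far apart for several members, among them the member that rose most in the transgene line. POLR2B had 237, 351 and 320.4 CPM in No Dox and 145, 635 and 26.1 CPM in With Dox. POLR2E had 255, 401 and 233 CPM in No Dox and 511, 307 and 1103 CPM in With Dox. The range within the treated parental group was thus wider than the shift between Control and Induced for both.

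**Figure D3:**
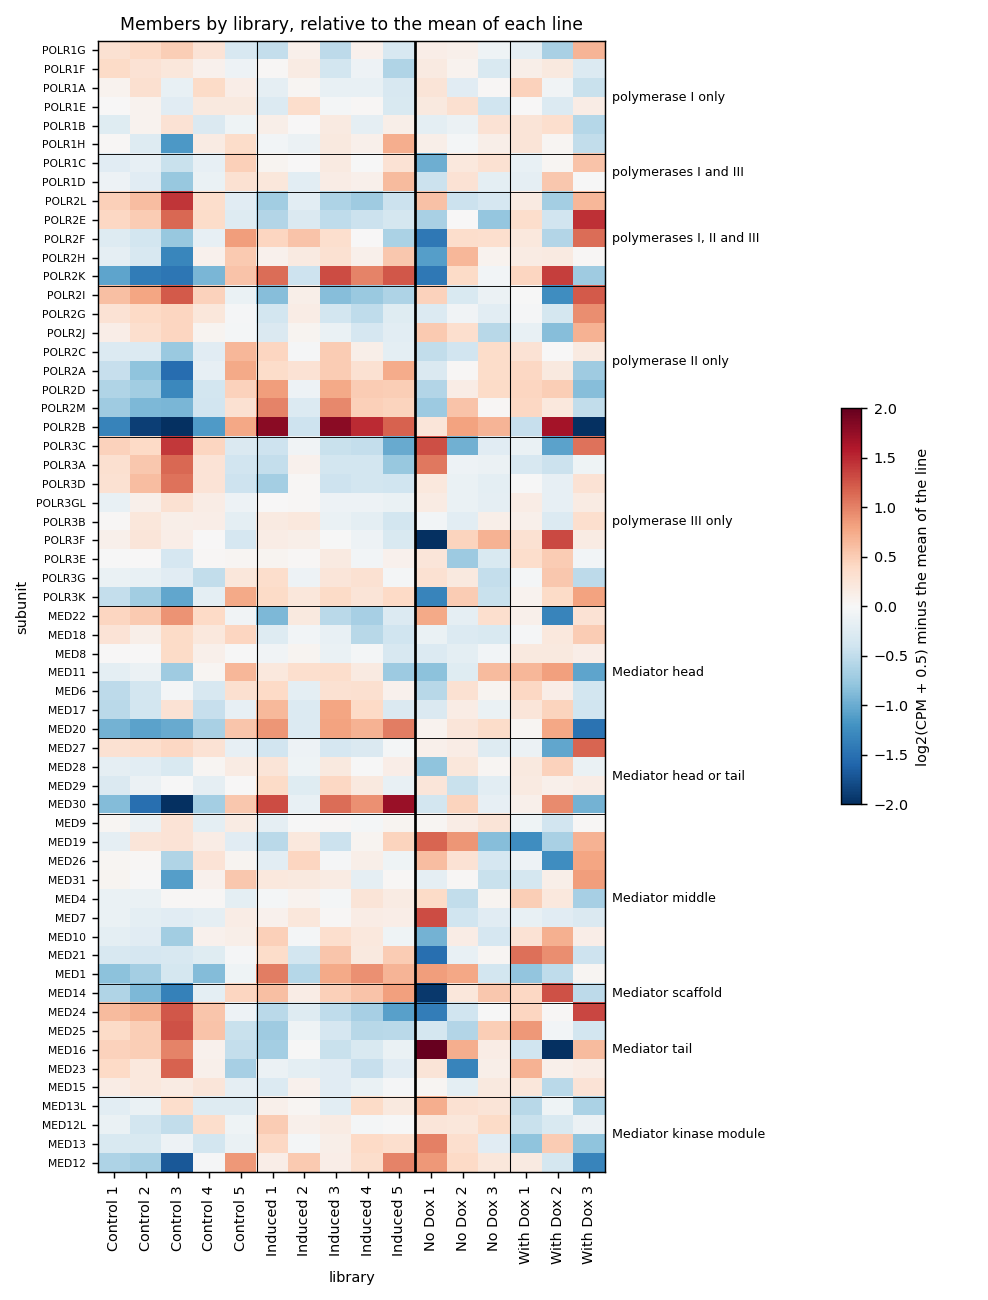
Each cell is log2(CPM + 0.5) of a subunit named here (rows, grouped by role) in a library (columns) minus that subunit's mean over its line, red above and blue below. Control replicate 5 and Induced replicate 2 are paler than, or opposite to, their groups for POLR2B, POLR2K and MED30, and With Dox replicates 2 and 3 show opposite patterns within 1 group.

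Whether a response differed between the lines was tested as an interaction, the Induced against Control change minus the With Dox against No Dox change. Of 60 members 4 passed, 1 positive and 3 negative, beside 2.98% of 12265 genes, 0.775% positive and 2.20% negative. MED24 had a difference of -2.71 (log2, SE 0.53, adjusted p = 0.037), falling in the transgene line and rising in value in parental cells. POLR2E had -2.30 (SE 0.54, adjusted p = 0.042) and MED18 -1.29 (SE 0.30, adjusted p = 0.042). MED1 had 1.86 (SE 0.49, adjusted p = 0.0496), with 153, 146 and 65.9 CPM in No Dox and 49.3, 59.8 and 87.2 CPM in With Dox.

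These 4 calls were fragile. When 1 of the 16 libraries was left out, MED24 passed in 5 fits, MED1 in 4, and POLR2E and MED18 in 3 each. The number of members passing ran from 0 in 11 of the 16 fits to 14 without Control replicate 5 and 10 without With Dox replicate 2. Without Control replicate 5, 2290 of 12125 genes passed, and without With Dox replicate 2, 1647 of 12412. The lines also differ in sequencing run, read length and depth, which cannot be told apart from the line.

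The members that rose and fell differed in base composition. Transcripts of the 10 that rose had a median GC content of 41.1% (35.4 to 47.3%) and those of the 13 that fell 54.4% (44 to 65.4%). All genes had the same order, with 42.5% for those that rose and 57.0% for those that fell. Across the 61 members, log2 fold change and GC content had a Spearman correlation of -0.48, and across 12922 genes -0.43. For the last 300 transcript bases, the tagged end, both were -0.51. These are correlations across genes measured in the same 10 libraries, and genes are not independent replicates. Transcript length had a correlation of 0.11 over the members. Among those that fell POLR3C had the lowest GC content of the whole transcript, 44%, and 36% in its last 300 bases. It stayed lower with GC offsets (-1.34, adjusted p = 0.027).

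**Figure D4:**
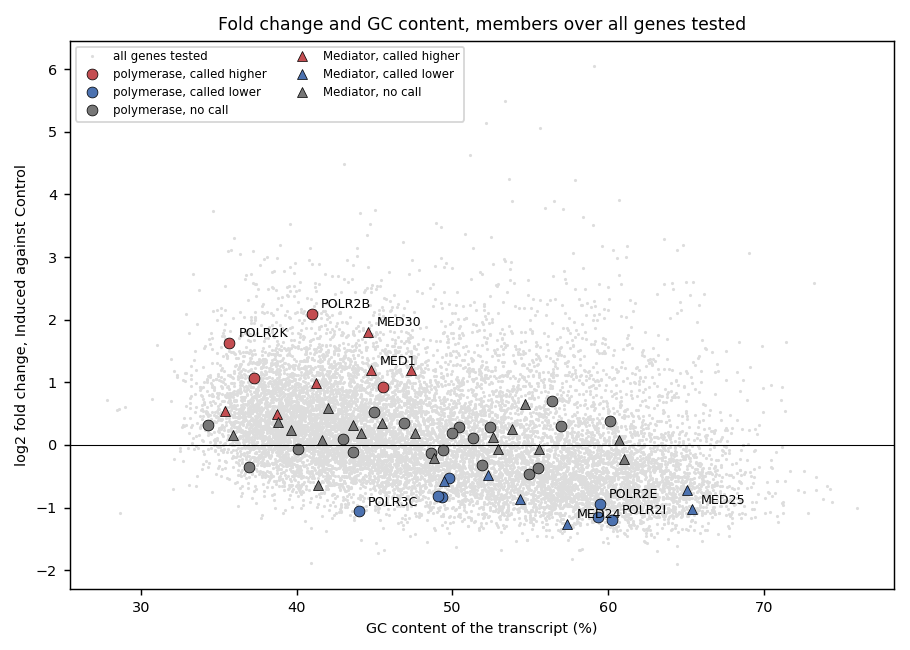
Log2 fold change, Induced against Control (y axis), against GC content of the transcript in percent (x axis) for all tested genes (grey), the polymerase subunits named here (circles) and Mediator subunits (triangles), red where called higher and blue where called lower. Members called higher lie at 35.4 to 47.3% GC and members called lower at 44 to 65.4%.

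The libraries themselves differed in the same property. The 3217 tested genes with a GC content at or below 41.9%, the lower quartile, members left out, took 14.6 to 18.4% of counts in Control and 18.0 to 22.3% in Induced. Control replicate 5 was the highest Control library and Induced replicate 2 the lowest Induced library in this share. In parental cells the share was 15.9 to 19.4% without doxycycline and 14.6, 18.1 and 22.6% with it, in ascending order of With Dox replicates 3, 1 and 2. POLR2B was lowest in With Dox replicate 3 and highest in With Dox replicate 2, and POLR2E the reverse. The part of this library property in the members' changes was not tested beyond the GC offsets. These offsets used the whole transcript and not its tagged 3′ end. With them POLR2B (1.79), POLR2K (1.13), MED30 (1.62), MED1 (0.96) and MED20 (1.09) still passed as higher. POLR2E (-0.56), POLR2G (-0.54), POLR2I (-0.81), POLR2L (-0.77), POLR3A (-0.87), POLR3C, POLR3D (-0.86), MED18 (-0.61), MED22 (-0.69) and MED24 (-0.94) still passed as lower. The 8 that did not were POLR2D, POLR2M, MED13, MED14 and MED21 of those that rose and MED16, MED25 and MED27 of those that fell, while POLR1F and MED23 passed as lower with the offsets and not without them.

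**Figure D5:**
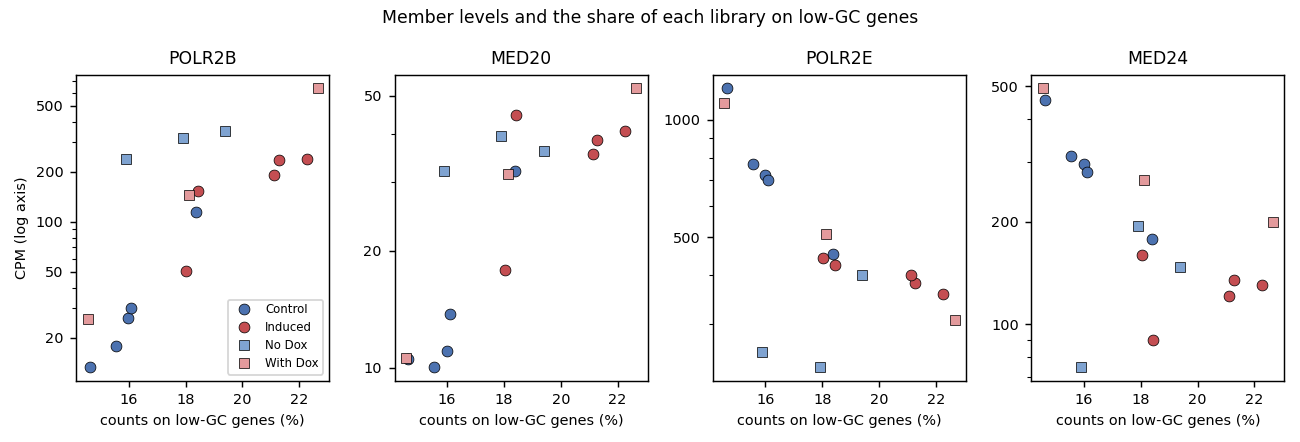
CPM on a log axis (y axis) of POLR2B, MED20, POLR2E and MED24 against the percentage of each library's counts on low-GC genes (x axis), each point 1 library, circles for the transgene line and squares for the parental line. The share runs from 14.6 to 18.4% in Control, 18.0 to 22.3% in Induced, 15.9 to 19.4% in No Dox and 14.6 to 22.6% in With Dox.

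Other parts of the transcription machinery were read from a list of 91 genes. Of 89 tested 35 rose and 13 fell in Induced (53.9% called, against 39.8% of all genes), with a median log2 fold change of 0.38. With GC offsets 24 passed as higher and 5 as lower, beside 11.7% and 14.9% of all genes. Of the list's calls 26 were among the 48 called above, and the median was 0.16. Scaled to total counts 50 passed as higher and 5 as lower, beside 30.8% and 10.7% of all genes. The general factors of RNA polymerase II gave 17 higher and 4 lower of 33, with the largest rise in GTF2H2, a TFIIH subunit, at 2.98 (SE 1.04, adjusted p = 0.041), from 1.38 to 11.4 CPM, and 2.63 (adjusted p = 0.061) with GC offsets, under which the group gave 12 higher and 3 lower. The largest fall there was ERCC2, the TFIIH helicase XPD, at -0.94 (SE 0.24, adjusted p = 0.018). Subunits of TFIID moved both ways. TAF1, the largest (2.49, SE 0.75, log2), TBP (1.16), TAF2, TAF4, TAF7 and TAF8 rose. TAF6 (-0.64), TAF10 (-0.65) and TAF11 (-0.78) fell, and the other TAF genes of this group did not pass. TAF1 had 14.1 ± 18.4 CPM in Control (SD, n = 5). Elongation factors gave 13 higher and 4 lower of 30, led by AFF1 of the super elongation complex (1.92, adjusted p = 0.018) and TCEA2, a TFIIS form (-0.83, adjusted p = 0.019). With GC offsets they gave 9 higher and 2 lower, and TCEA2 did not pass (-0.39, adjusted p = 0.072).

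Factors of RNA polymerase I gave 1 higher and 1 lower of 7, TAF1D (1.16, adjusted p = 0.030) and TAF1C (-0.76, adjusted p = 0.018), both subunits of selectivity factor SL1. With GC offsets neither these (0.74, adjusted p = 0.068, and -0.34, adjusted p = 0.067) nor any other of the 7 passed. Factors of RNA polymerase III gave 3 higher and 4 lower of 16, led by GTF3C6 of TFIIIC (1.41, adjusted p = 0.018) and SNAPC4 of the small nuclear RNA activating complex (-0.85, adjusted p = 0.022). With GC offsets 2 passed, both higher, and SNAPC4 was at -0.38 (adjusted p = 0.096). In parental cells none of these genes passed the test, beside 0 of 9124 genes. In the interaction 1 of 88 did, beside 2.98% of 12265 genes. It was TAF10, a TFIID subunit, named after its value was seen.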

How the data were processed

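Per the labels, cytoplasmic RNA of 16 U2OS cultures was made into QuantSeq REV libraries (5 Control, 5 Induced, 3 No Dox, 3 With Dox). The authors ran Lexogen's QuantSeq pipeline on GRCh38 and deposited raw read counts per Ensembl gene, 1 table a sample; aligner and strand setting are not given in the sources used here. The files also hold 92 spike-in entries, with no reads, and 5 summary rows, both left out of library sizes. Reads without a feature were 0.0744 to 0.106 per gene count in the transgene line and 1.11 to 1.50 in the parental line. Reads whose alignment was not unique were 0.561 to 1.33 per gene count in the transgene line and 0.773 to 1.44 in the parental line. Genes were named from GENCODE release 44 (56104 of 60107). The paper describes the parental libraries as made from replicate cultures, so p-values there measure the spread between cultures, technical spread included.

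Genes with a mean count over 20 were tested with edgeR 4.0.16 (quasi-likelihood, TMM scaling, R 4.3.3), separately for each line and as an interaction, with Benjamini-Hochberg adjustment over all genes and a threshold of 0.05. The fits were tested on simulated data. CPM were computed with TMM library sizes within each line. Alternatives were DESeq2 1.42.0, other scalings and filters, a replicate block, GC offsets (lowess span 0.5), 1 surrogate variable (sva 3.50.0) and leaving out libraries. 1 member is counted in the totals and not reported here. The members and lists were chosen with earlier results of these data known. Members named in full were the 5 largest rises and 5 largest falls called in each complex, with the extremes of each role. No 2 replicates matched within sampling noise (chi-square per degree of freedom at least 4.55). Reads without molecular identifiers are not independent molecules.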

Additional observations from a re-analysis of the deposited data

Results flagged for a closer look

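In 46 groups of 5 libraries (23 called members, Control and Induced), 7 had 1 library far from the others by Dixon's ratio at its 95% limit of 0.71; chance flags about 1 group in 20. Control replicate 5 was the highest Control library for POLR2B (115 CPM), POLR2K (26.9 CPM), MED20 (32.1 CPM) and MED21 (28.2 CPM), and the lowest for MED27 (256 CPM). Induced replicate 2 was the highest Induced library for POLR2I (182 CPM) and the lowest for POLR2K (13.5 CPM).

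The response differed between the transgene line and the parental line for MED24 (-2.71, log2), POLR2E (-2.30), MED18 (-1.29) and MED1 (1.86), by the interaction test with adjusted p of 0.037 to 0.0496.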

How the results depend on the processing

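All 23 members called in Induced against Control kept their direction under every alternative run, except MED21 with GC offsets (-0.025) and with GC offsets plus the replicate block (-0.042); 92 of 230 leave-one-out values lost the call. Calls among all members were 0 with 1 surrogate variable and 40 without both Control 5 and Induced 2, and 6 to 31 leaving out 1 library; for polymerase subunits 0, 21 and 3 to 16; for Mediator subunits 0, 19 and 3 to 15, and 7 with GC offsets. DESeq2 gave 25 and shared 23. By scaling, total counts alone raised the share of calls that were higher from 50.2% to 74.2% over all genes. In parental cells the count stayed 0 in every fit.

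The interaction gave 0 calls with filterByExpr and 1 with the replicate block, also with GC offsets, and 0 to 14 leaving out 1 library. Same-numbered cultures correlated at -0.37 to 0.62 in the transgene line and -0.43 to 0.24 in the parental line. Differently numbered ones correlated at -0.76 to 0.53 and -0.40 to 0.50. These few, widely spread values cannot decide whether the numbers pair the samples. With the replicate block 22 members passed in Induced against Control.

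The polymerase median in Induced against Control was 0.17 with total counts and -0.18 without both Control 5 and Induced 2, and -0.10 to 0.00353 leaving out 1 library. The Mediator median was 0.41 with total counts, 0.046 with GC offsets, 0.033 with GC offsets and block, 0.064 with 1 surrogate variable, and 0.13 to 0.25 leaving out 1 library. In parental cells the polymerase median was -0.050 with total counts, beside -0.15 for all genes, and 0.098 to 0.21 leaving out 1 library. The Mediator median was 0.082 with total counts, 0.10 with the block and 0.15 with GC offsets and block. It was 0.032 with 1 surrogate variable and -0.068 to 0.24 leaving out 1 library. The interaction medians were -0.39 for polymerase and -0.048 for Mediator subunits, beside -0.094 for all genes. With total counts they were 0.22 and 0.52, beside 0.49 for all genes. With filterByExpr they were -0.15 and 0.10, beside 0.089 for all genes. Without a filter they were -0.14 and 0.12, beside 0.13 for all genes. Leaving out 1 library gave -0.43 to -0.18 and -0.15 to 0.22. The causes were not tested.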
